A study of Homo sapiens with 6 samples.

Results

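The expression of 8 genes of the caveola, a pit of the plasma membrane, was described in definitive endoderm (DE) cells with and without saracatinib (SAR). The genes are CAV1, CAV2, CAVIN1 (older symbol PTRF), CAVIN2 (SDPR), CAVIN3 (PRKCDBP), EHD2, PACSIN2 and MYOF. The 8 genes were chosen by name, and each matched exactly 1 of the 40396 Ensembl gene IDs of the expression table. The cells were of the human embryonic stem cell line H1. Both groups were differentiated for 3 days on Matrigel with activin A at 50 ng/ml, and the Wnt pathway activator CHIR99021 was present at 2.5 µM in the first 24 h. The control group (3 libraries) received DMSO, and the SAR group (3 libraries) received 0.5 µM SAR, a compound made to inhibit Src family kinases, throughout. Both groups come from 1 cell line, and the labels do not tell if the libraries of a group were grown as separate cultures. The p-values therefore measure the spread between these libraries only, which may be technical.

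Caveolae are flask-shaped pits that store membrane and flatten when the membrane is stretched. Caveolin 1 and caveolin 2, the products of CAV1 and CAV2, sit in the inner leaflet, and caveolin 2 depends on caveolin 1 to reach the cell surface. The cavins form a coat around the caveolins, with cavin 1 as the member that non-muscle caveolae require. EHD2 is an ATPase that holds the neck of the pit, PACSIN2 is an F-BAR protein that bends the membrane there, and myoferlin (MYOF) is a ferlin that acts in membrane fusion and repair. Caveolin 1 is a known substrate of Src. Only mRNA was analysed here, so neither Src activity, protein, phosphorylation nor caveolae are described.

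The genes lie on 7 chromosomes in the GENCODE 29 annotation of GRCh38, and all 8 are protein coding. CAV2 (ENSG00000105971, chromosome 7 from 116287380 to 116508541) and CAV1 (ENSG00000105974, chromosome 7 from 116524785 to 116561184) are neighbors on the plus strand, 16.2 kb apart. The GENCODE start of CAV2, at 116287380, lies far upstream of both of its RefSeq promoter windows, which start at 116499488 and 116499796. CAVIN1 (ENSG00000177469) is on chromosome 17 from 42402452 to 42423517, CAVIN2 (ENSG00000168497) on chromosome 2 from 191834302 to 191847255, and CAVIN3 (ENSG00000170955) on chromosome 11 from 6318946 to 6320647. EHD2 (ENSG00000024422) is on chromosome 19 from 47713343 to 47743134, PACSIN2 (ENSG00000100266) on chromosome 22 from 42835412 to 43015145, and MYOF (ENSG00000138119) on chromosome 10 from 93306429 to 93482317. CAVIN3 shares 33.3% of its exon bases with AC068733.3 on the opposite strand. For the other members at most 7.22% of the exon bases lie in another gene.

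RefSeq promoter windows of GRCh38.p14, from 250 bases before to 50 bases after a transcription start, were listed for 6 of the 8 members, all except CAVIN1 and CAVIN3. The first window listed is shown for the 3 members that fell with SAR (CAV1, CAV2 and MYOF) and for PACSIN2, which did not pass the test. Capitals mark each match, on either strand, to the GC box GGGCGG, read by SP1-type factors, or to GGAATG, the core read by the TEAD partners of YAP. The windows are chr7:116524759-116525058 (plus strand) for CAV1, chr7:116499488-116499787 (plus strand) for CAV2, chr10:93482285-93482584 (minus strand) for MYOF and chr22:42959850-42960149 (minus strand) for PACSIN2.
CAV1: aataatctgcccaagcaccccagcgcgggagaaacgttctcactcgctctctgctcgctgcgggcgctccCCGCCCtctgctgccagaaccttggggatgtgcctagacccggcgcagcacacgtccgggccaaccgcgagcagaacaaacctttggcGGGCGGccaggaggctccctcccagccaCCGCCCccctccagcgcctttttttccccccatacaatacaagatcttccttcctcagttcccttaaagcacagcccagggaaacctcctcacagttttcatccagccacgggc
CAV2: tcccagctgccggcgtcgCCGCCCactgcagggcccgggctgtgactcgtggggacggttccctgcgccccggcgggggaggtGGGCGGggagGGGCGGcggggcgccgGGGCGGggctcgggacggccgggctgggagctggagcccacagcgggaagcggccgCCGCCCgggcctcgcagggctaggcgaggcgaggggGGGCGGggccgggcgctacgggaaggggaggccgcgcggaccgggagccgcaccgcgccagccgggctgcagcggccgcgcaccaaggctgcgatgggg
MYOF: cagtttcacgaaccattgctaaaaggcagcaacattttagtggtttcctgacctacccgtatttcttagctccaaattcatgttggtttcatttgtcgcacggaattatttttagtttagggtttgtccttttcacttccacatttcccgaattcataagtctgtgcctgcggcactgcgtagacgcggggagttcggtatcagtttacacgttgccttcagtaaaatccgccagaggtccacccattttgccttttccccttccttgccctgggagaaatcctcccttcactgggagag
PACSIN2: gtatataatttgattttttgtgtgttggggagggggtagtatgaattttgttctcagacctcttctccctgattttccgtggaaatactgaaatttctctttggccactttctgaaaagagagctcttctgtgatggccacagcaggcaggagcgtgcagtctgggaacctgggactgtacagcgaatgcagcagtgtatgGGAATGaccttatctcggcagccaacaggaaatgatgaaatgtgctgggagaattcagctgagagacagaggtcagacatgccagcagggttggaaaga

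The CAV1 window holds 3 GC boxes and the CAV2 window 6, and a GC box is found in 45% of all 35116 promoter windows of that length. Of the 14 windows of the members 7 hold a GC box. Besides those of CAV1 and CAV2 these are the only window of EHD2 and 1 of the 6 of PACSIN2, genes that did not pass the test. Windows 1 and 2 of CAV1 overlap and hold the same 3 GC boxes, so the 7 windows do not all hold separate sites. The MYOF window holds neither motif. GGAATG was found in 5 of the 14 windows of the members, 4 of the 6 of PACSIN2 and the only one of CAVIN2. Windows 1, 2 and 3 of PACSIN2 overlap and hold the same match, so the 5 windows are not 5 separate sites. Of all promoter windows, 14% hold it. No window of CAV1, CAV2 or MYOF holds GGAATG. AP-1 sites (TGANTCA), forkhead sites (TGTTTAC) and the CArG box of SRF were found in 0 of the 14 windows and in 7.71%, 3.42% and 1.29% of all windows. GC boxes were searched after the values had been seen. These matches describe the letters of the windows and are not evidence of binding.

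Expression was given by the authors as FPKM, fragments per kilobase of gene scaled to the library's total, so that levels can be compared between genes. The libraries held 18877964 to 24419937 reads in control and 16681280 to 18389543 with SAR, as recovered from the FPKM. Control replicate 1 listed 33169 genes above 0 and the other libraries 29506 to 30109. The DE markers FOXA2 (23.6 ± 1.38 FPKM in control, SD, n = 3), SOX17 (31.6 ± 1.84) and CXCR4 (118 ± 3.78) were present in all libraries. Of the 12 DE markers listed, 4 rose and 6 fell with SAR by the limma test described with the members. Of all tested genes, 23.7% rose and 9.55% fell by that test. Over the 16371 tested genes the median log2 fold change was 0.12 in the FPKM themselves. Median-ratio rescaling, which divides a library by its typical ratio to the gene means, brought it to 0.00, and both values are given for the members.

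In control the levels of the members were led by PACSIN2 at 24.5 ± 1.33 FPKM and CAVIN1 at 18.8 ± 5.46, whose libraries overlapped. CAV1 followed at 10.4 ± 2.67, CAVIN3 at 8.14 ± 0.214 and EHD2 at 7.88 ± 0.474, and these 3 overlapped each other. MYOF at 5.09 ± 0.507 FPKM lay below all of these in every library and above CAV2 at 2.72 ± 0.397. CAV1 stood at the 75.5th percentile of the tested genes in control and CAV2 at the 42.7th. CAVIN2 was close to absent, with 1 to 5 reads per library and at most 0.089 FPKM. With SAR the order changed at CAV1, which at 3.87 ± 0.471 FPKM lay below EHD2 (8.57 ± 0.653) in every library and still above MYOF (2.72 ± 0.104).

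**Figure D1:**
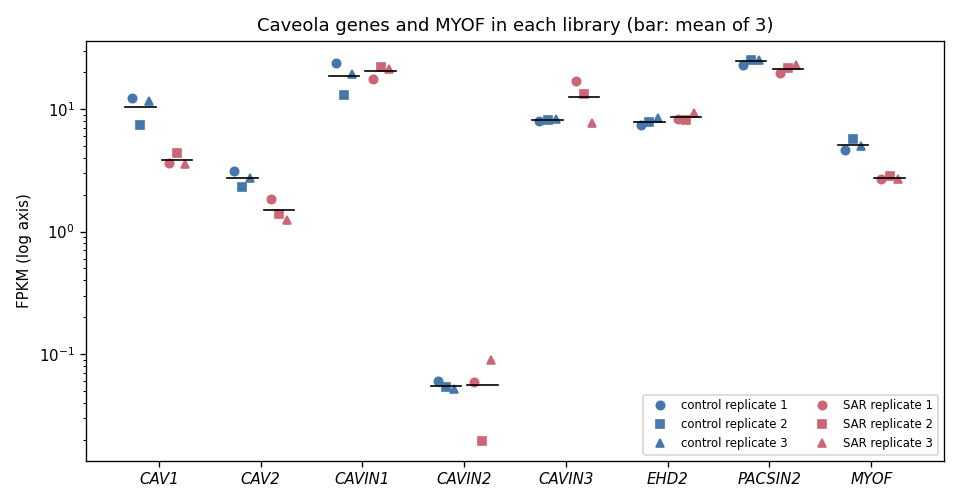
FPKM of the 8 members (log axis) in the 3 control libraries (blue) and the 3 SAR libraries (red), with marker shapes for replicates 1 to 3 and a bar at each mean. The SAR libraries of CAV1, CAV2 and MYOF lie below all control libraries, those of CAVIN1, CAVIN3 and EHD2 overlap the control libraries, and CAVIN2 stays at or under 0.089 FPKM in all 6.

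Both caveolins and myoferlin fell with SAR, while CAVIN1, CAVIN3, EHD2 and PACSIN2 did not pass the test and CAVIN2 was not tested. Of the 8 members, 7 passed the minimum mean of 0.5 FPKM, and each of the 7 was above that level in every library of both groups. At an adjusted p-value under 0.05 (limma on log2(FPKM + 0.1), all tested genes), 3 of the 7 were lower and 0 were higher, where 9.55% of all tested genes were lower and 23.7% higher. After median-ratio rescaling, 4 were lower and 0 higher, beside 15.5% and 13.8% of all tested genes. At an unadjusted p-value under 0.05 in the FPKM as deposited, 4 were lower and 0 higher, beside 13.8% and 32.4% of all tested genes. Only CAV1 was also past a log2 fold change of -1, as were 1.58% of all tested genes, while 3.41% rose past 1. The median log2 fold change of the 7 genes was -0.19. In 4 of the 7 all SAR libraries lay below all control libraries, which 15.2% of all tested genes showed, and in 0 above, which 35.5% showed. Fewer cells with a transcript and less transcript per cell cannot be told apart in these bulk samples.

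CAV1, the main structural protein of the caveola, had 12.4, 7.39 and 11.6 FPKM in control replicates 1, 2 and 3 and 3.66, 4.41 and 3.54 FPKM in SAR replicates 1, 2 and 3. Even control replicate 2, the lowest of its group, was well above the highest SAR library, so the groups did not overlap. These values rest on 698 to 1048 reads per control library and 236 to 289 per SAR library. Its log2 fold change of -1.38 (95% interval -1.85 to -0.91, standard error 0.197) corresponds to a level lower by 61.6% (adjusted p = 0.00355, limma). After median-ratio rescaling it was -1.50.

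CAV2, which forms mixed oligomers with caveolin 1, had 3.10, 2.31 and 2.75 FPKM in control replicates 1, 2 and 3 and 1.85, 1.40 and 1.25 FPKM in the SAR replicates. All SAR libraries were lower than all control libraries, with 341 to 447 reads in control and 151 to 203 with SAR. On the log2 scale CAV2 changed by -0.83 (95% interval -1.23 to -0.43, adjusted p = 0.0119 from limma), a level lower by 43.6%, and by -0.94 after rescaling.

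MYOF had 4.66, 5.65 and 4.97 FPKM in the control replicates and 2.66, 2.84 and 2.66 FPKM in the SAR replicates. The SAR libraries were close to each other and all lay below the control libraries, on 796 to 1171 reads in control and 377 to 416 with SAR. Its log2 fold change of -0.87 (standard error 0.0886, 95% interval -1.08 to -0.66) had the smallest adjusted p-value of the members (adjusted p = 0.00122 from limma). After rescaling it was -0.99, just short of the fold change threshold.

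CAVIN1, the coat protein on which the other cavins depend, had 23.8, 13 and 19.5 FPKM in the control replicates and 17.6, 21.9 and 21.3 FPKM in the SAR replicates. Control replicate 2 was the lowest library and control replicate 1 the highest, so the SAR libraries lay within the control range. The log2 fold change was 0.15 with a 95% interval of -0.36 to 0.65 (adjusted p = 0.618 from limma). That interval runs from 0.781-fold to 1.57-fold and does not meet the interval of CAV1, which runs from 0.278-fold to 0.531-fold. Without control replicate 2 the log2 fold change of CAVIN1 was -0.0948.

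CAVIN3, a cavin that binds caveolin 1 and protein kinase C delta, had 7.95, 8.10 and 8.37 FPKM in the control replicates. In the SAR replicates 1, 2 and 3 it had 16.9, 13.3 and 7.72 FPKM. SAR replicates 1 and 2 were above all control libraries, and SAR replicate 3 was below them. The log2 fold change was 0.56 (95% interval -0.05 to 1.17, adjusted p = 0.134 from limma) and did not pass. Without SAR replicate 3 it was 0.88 (adjusted p = 0.00442), so this 1 library decided the call. AC068733.3, the gene opposite to it, had 0.172 to 0.192 FPKM in control and 0.32 to 0.396 with SAR, and the strand setting of the counting is not given in the sources used here.

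CAVIN2 was not tested, because its mean of 0.0554 FPKM lay under the minimum. It had 0.0598, 0.0536 and 0.052 FPKM (4, 4 and 3 reads) in the control replicates and 0.0589, 0.0193 and 0.089 FPKM (3, 1 and 5 reads) in the SAR replicates. At this depth no difference was detectable.

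EHD2 had 7.43, 7.84 and 8.38 FPKM in the control replicates and 8.22, 8.17 and 9.32 FPKM in the SAR replicates, which overlapped. Its log2 fold change was 0.12 (95% interval -0.07 to 0.30, adjusted p = 0.277 from limma), the same as the median of all tested genes, and -0.0035 after rescaling.

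PACSIN2 had 22.9, 25.2 and 25.3 FPKM in the control replicates and 19.7, 21.8 and 22.8 FPKM in the SAR replicates. The groups did not overlap, but control replicate 1 and SAR replicate 3 were almost level. With a log2 fold change of -0.19 (95% interval -0.37 to -0.02) PACSIN2 did not pass the test as deposited (adjusted p = 0.0853 from limma). After median-ratio rescaling it was lower, at -0.31 (adjusted p = 0.0256).

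**Figure D2:**
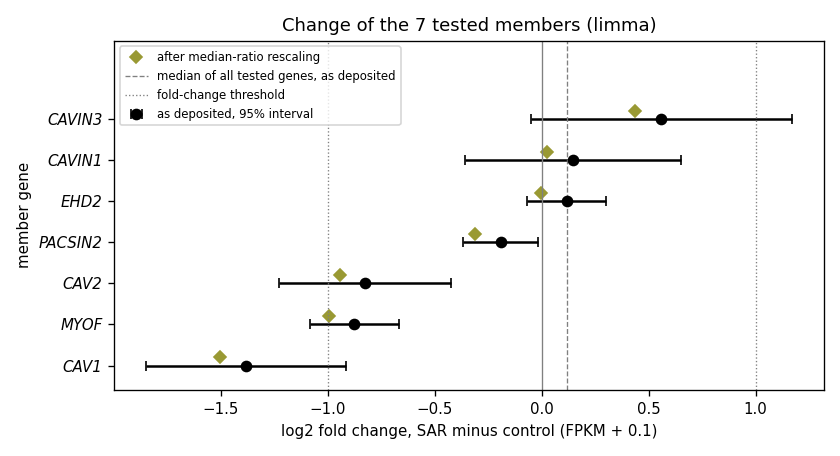
Log2 fold change (SAR minus control, x axis) of the 7 tested members, with 95% intervals from limma as deposited (black) and the value after median-ratio rescaling (diamonds). CAV1 at -1.38, MYOF at -0.87 and CAV2 at -0.83 lie apart from PACSIN2, EHD2 and CAVIN1, which stand between -0.19 and 0.15, and CAVIN3 has the widest interval.

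To see whether the members changed unequally, ratios between their FPKM were taken within each library, where the scaling between libraries cancels. The ratio of CAVIN1 to CAV1 was 1.93, 1.76 and 1.69 in the control replicates and 4.82, 4.96 and 6.02 in the SAR replicates. The groups were far apart, with the cavin coat transcript 2.93-fold higher against the caveolin transcript with SAR. Within control the ratio spanned 1.14-fold, although CAV1 itself spanned 1.68-fold and CAVIN1 1.83-fold, since both were lowest in control replicate 2. An exact two-sided permutation test gave p = 0.1, the smallest that 3 against 3 libraries allow, and 0.2 adjusted over the 6 ratios tested.

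The ratio of CAV1 to CAV2 was 3.99, 3.20 and 4.21 in the control replicates and 1.98, 3.15 and 2.84 in the SAR replicates. These groups did not overlap (exact permutation p = 0.1, adjusted p = 0.2), but control replicate 2 and SAR replicate 2 were nearly equal. PACSIN2 to EHD2 was at 3.09, 3.22 and 3.01 in the control replicates and at 2.40, 2.67 and 2.45 in the SAR replicates, without overlap and with the same p-values. MYOF to CAV1 overlapped between the groups, at 0.376 to 0.764 in control and 0.645 to 0.752 with SAR (exact permutation p = 0.4, adjusted p = 0.6). CAVIN3 to CAVIN1 (exact permutation p = 0.5, adjusted p = 0.6) and EHD2 to CAVIN1 (exact permutation p = 1.0, adjusted p = 1.0) also overlapped.

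**Figure D3:**
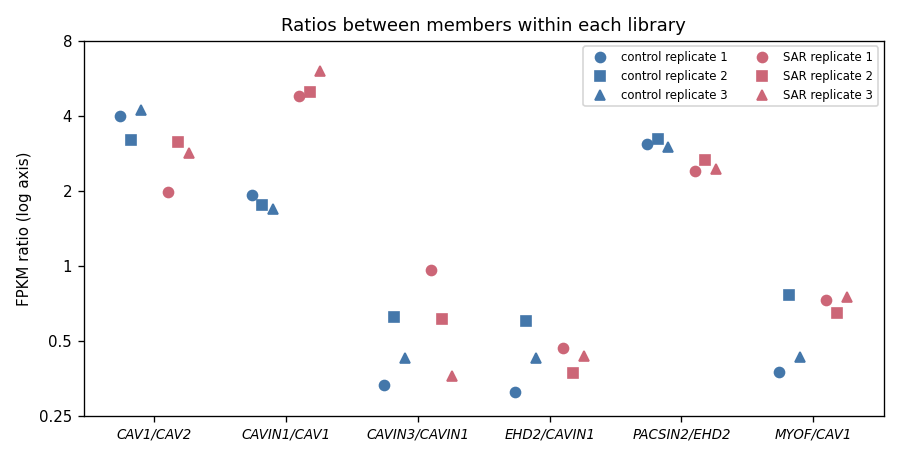
FPKM ratios between pairs of members within each library (log axis), control in blue and SAR in red, with marker shapes for replicates 1 to 3. The ratio of CAVIN1 to CAV1 has its control libraries at 1.69 to 1.93 and its SAR libraries at 4.82 to 6.02, the widest separation of the 6 ratios.

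CAV1 and CAV2 share a stretch of chromosome 7 with other genes, which were examined after the members' values had been seen. Of 14 genes within 500 kb of the pair, 7 were tested. TES, which encodes the focal adhesion protein testin, had 17.8, 17.0 and 17.6 FPKM in the control replicates and 8.96, 8.87 and 9.09 FPKM in the SAR replicates. It ends at 116258783, 28.6 kb before the GENCODE start of CAV2. The RefSeq promoter windows of CAV2 lie much further from TES, the first from 116499488. Every SAR library was at about the same level, far below control. The log2 fold change of TES was -0.95 (adjusted p = 0.000147 from limma, standard error 0.05) and -1.08 after rescaling. On the other side, MET, which encodes the receptor of hepatocyte growth factor and begins 111 kb after CAV1, overlapped between the groups (-0.25, adjusted p = 0.619 from limma). CAPZA2, a subunit of the actin capping protein, was at 0.03 (adjusted p = 0.704). ST7 and ST7-AS1, at 0.23 and 0.83, did not pass either (adjusted p = 0.486 and 0.0899). Their control means of 0.497 and 0.36 FPKM lay under the minimum of 0.5, so they were tested only through their SAR levels. The 3 of the 7 tested genes that passed were TES, CAV2 and CAV1, all lower, as were 9.55% of all tested genes. CAV1 and CAV2 had passed before the window was set around them, so only TES was added by it.

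**Figure D4:**
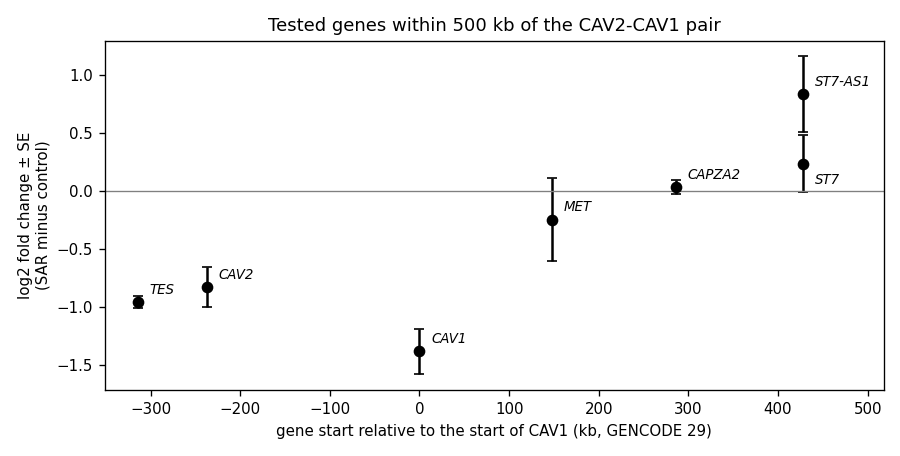
Log2 fold change with standard error (SAR minus control, y axis) of the 7 tested genes within 500 kb of the CAV2-CAV1 pair, placed by the distance of their GENCODE start from that of CAV1 in kb. For CAV2 this start lies far upstream of its RefSeq promoter windows. TES, CAV2 and CAV1 lie between -1.38 and -0.83, and CAPZA2 at 0.03.

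The nearest relatives of the members were mostly level. Of 11 paralogs, 7 were tested, 1 was lower and 0 were higher at an adjusted p-value under 0.05 (limma), with a median of -0.09. At an unadjusted p-value under 0.05, 1 was lower and 1 higher, beside 13.8% and 32.4% of all tested genes. The lower gene was PACSIN1, the neuronal PACSIN, which fell from 4.40 ± 0.297 to 3.24 ± 0.601 FPKM, at -0.44 (adjusted p = 0.0475 from limma). Leaving out any 1 of the control replicates, or SAR replicate 1 or 2, ended this call and left 0 paralogs lower. PACSIN3, at 0.31 (adjusted p = 0.0533 from limma), had all SAR libraries above all control libraries. EHD1, EHD3 and EHD4, relatives of EHD2 in endosomal recycling, had log2 fold changes of 0.08, -0.11 and -0.10 and adjusted p-values from limma of 0.314 to 0.364. After median-ratio rescaling 2 paralogs were lower, PACSIN1 and EHD4 (adjusted p = 0.0244 and 0.0451 from limma), and 0 higher. Of all tested genes 15.5% were then lower and 13.8% higher. DYSF, the ferlin dysferlin, was at 0.14 (adjusted p = 0.502), on 1.10 ± 0.155 FPKM in control. CAVIN4, the muscle cavin, was present at 4.28 ± 0.411 FPKM in control and 4.01 ± 0.263 with SAR (-0.09, adjusted p = 0.475 from limma), above CAV2 in every library. CAV3, the muscle caveolin, had at most 0.164 FPKM in any library and was not tested.

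A list of 24 genes held partners and residents of caveolae and also the flotillins FLOT1 and FLOT2. Of these genes 20 were tested, and 8, FLOT1 among them, rose and 0 fell at an adjusted p-value under 0.05 by limma. At an unadjusted p-value under 0.05, 11 were higher and 3 lower, beside 32.4% and 13.8% of all tested genes. Their share of 40% higher stood beside 23.7% of all tested genes, and their median of 0.15 beside 0.12. After median-ratio rescaling, 6 of the partners were higher and 4 lower, beside 13.8% and 15.5% of all tested genes. Without SAR replicate 3 alone, 8 were higher and 4 lower. The largest rise was that of TFPI, an inhibitor of tissue factor that resides in caveolae of endothelial cells, at 1.82 (adjusted p = 0.000926 from limma). It went from 0.514, 0.364 and 0.461 FPKM in the control replicates to 1.96, 1.84 and 1.65 FPKM in the SAR replicates. The control mean of TFPI, 0.446 FPKM, lay under the minimum of 0.5. TFPI was thus tested only through its SAR level, so its place among the 8 is no support for a rise of the list. ROR1, a receptor-like protein that holds cavin 1 and caveolin 1 together, rose from 4.37 ± 0.164 to 7.47 ± 0.533 FPKM, at 0.76 (adjusted p = 0.00114 from limma). FLOT1, a flotillin of membrane domains outside caveolae, rose by 0.39, PRKCA by 0.69 and HSPA12B by 0.78 on the log2 scale, with adjusted p-values from limma of 0.00333 to 0.00437.

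The coat of the other main endocytic route, clathrin, had 4 of 29 tested genes lower (13.8%) and 5 higher (17.2%) at an adjusted p-value under 0.05 from limma, beside 9.55% and 23.7% of all tested genes, with a median of -0.02. These counts moved with the scaling, to 9 lower and 3 higher after median-ratio rescaling, beside 15.5% and 13.8% of all tested genes. With quantile normalization 8 were lower and 4 higher. The lower count was 2 without control replicate 3 and 7 without SAR replicate 3. PICALM, a clathrin assembly protein, fell from 48.3 ± 2.39 to 31.9 ± 0.759 FPKM (-0.60, adjusted p = 0.000944 from limma), and the heavy chain CLTC was lower too (log2 fold change -0.21, adjusted p = 0.0251). DAB2, an adaptor, rose by 0.86, BIN1, which bends membranes, by 0.52 and SH3GL2, an endophilin, by 1.11 on the log2 scale, and EPS15 fell by 0.38.

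Among 18 genes of membrane repair, all tested, 5 were lower (27.8%) and 3 higher (16.7%) by the same test, beside 9.55% and 23.7% of all tested genes, with a median of -0.06. The lower count was 2 without control replicate 3 and 3 without control replicate 1 or 2 or SAR replicate 1 or 2, and the higher count was 3 in each of these. After median-ratio rescaling 6 were lower and 3 higher, beside 15.5% and 13.8% of all tested genes. ANXA1, an annexin that seals membrane, fell from 10.5, 4.52 and 7.60 FPKM in the control replicates to 2.72, 2.88 and 1.26 FPKM in the SAR replicates (-1.68, adjusted p = 0.0175 from limma). SMPD1, the acid sphingomyelinase, fell by 0.55 and ANXA7 by 0.35 on the log2 scale, while ANXA4 (0.72), CHMP4B (0.31) and the calcium sensor SYT7 (1.23) rose.

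**Figure D5:**
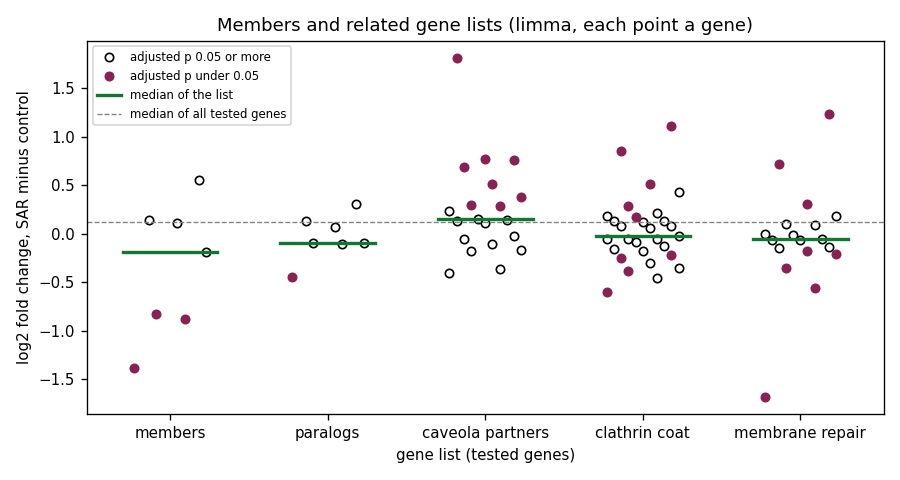
Log2 fold change (SAR minus control, y axis) of each tested member, paralog, caveola partner, clathrin coat gene and membrane repair gene, filled where the adjusted p-value from limma was under 0.05, with green bars at the list medians and a dashed line at the median of all tested genes (0.12). The lists hold both filled points above and below 0, except the members and paralogs, whose filled points lie below 0, and the caveola partners, whose filled points lie above 0.

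The genes whose profile over the 6 libraries was most like that of CAV1, by the root-mean-square difference of log2(FPKM + 0.1) centered on each gene's mean among 6934 genes of at least 5 FPKM, were NOCT (0.167), NANOG (0.172), PMEPA1 (0.19) and PLK2 (0.192). NANOG is a pluripotency factor, PMEPA1 an inhibitor of TGF-beta signaling and PLK2 a polo-like kinase. All 4 had their lowest control level in replicate 2, as CAV1 had. The profiles most like that of CAVIN3, the member with the largest log2 fold change upwards, were those of KRCC1 (0.139), DDIT3 (0.15), CCDC71 (0.171), NDUFC2 (0.172) and APOA2 (0.175), which all had their lowest SAR level in replicate 3.

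Markers of other cell types that can be rich in caveolae were examined as well. The counts are at an adjusted p-value under 0.05 from limma, which 23.7% of all tested genes passed upwards and 9.55% downwards. Of 12 endothelial markers, 6 were tested, 3 were higher and 2 lower, and their summed level was 35.1 to 36.3 FPKM in control and 40.8 to 45.5 with SAR. CLDN5, 1 of the 3 higher, had a control mean of 0.433 FPKM, under the minimum of 0.5, and was tested only through its SAR level. The defining genes PECAM1 and CDH5 were at or under 0.285 FPKM in every library, although PECAM1 was higher in every SAR library (0.24 to 0.274 FPKM) than in control (0.0411 to 0.118). Some other markers of the list were well expressed. VWF, the clotting factor carrier, rose from 7.08 ± 1.32 to 12.2 ± 2.43 FPKM (adjusted p = 0.0191 from limma) and EGFL7 from 10.7 ± 0.454 to 15.9 ± 0.32 (adjusted p = 0.00114). KDR, a VEGF receptor, fell from 13.4 ± 0.289 to 11.5 ± 0.172 FPKM (adjusted p = 0.0177). Of 13 mesenchymal and smooth muscle markers, 7 were tested, 1 was higher (DES) and 1 lower (TAGLN), and the sum was 102 to 132 FPKM in control and 98.3 to 112 with SAR. PRRX1, DCN and LUM were at or under 0.0855 FPKM, and ACTA2 at or under 0.261. In contrast, the collagen genes COL1A1 (23.8 ± 2.17 FPKM in control, 26.0 ± 3.14 with SAR) and COL1A2 (16.3 ± 1.87 and 15.7 ± 2.29), CNN1 (13.1 ± 2.85 and 14.8 ± 0.591) and THY1 (5.55 ± 0.542 and 5.73 ± 0.238) were expressed in both groups and overlapped between them. TAGLN, a smooth muscle marker, fell from 56.8 ± 10.7 to 40.5 ± 4.29 FPKM (-0.47, adjusted p = 0.0451 from limma). The low markers CDH5, PRRX1, DCN and LUM were highest in control replicate 1. CDH5 was at 0.285 FPKM there and at 0.0808 and 0.0784 FPKM in control replicates 2 and 3. That library also had the most genes above 0 and the highest CAV1. Without it the log2 fold change of CAV1 was -1.24 (adjusted p = 0.011 from limma). Of 12 mesoderm markers, 5 were tested, with TBXT (1.69) and TBX6 (0.82) higher and MIXL1 (-1.35) lower, and a sum of 51.7 to 55.7 FPKM in control and 30.4 to 42.7 with SAR. Of 9 pluripotency markers, 3 were higher (SOX2, LIN28A and TDGF1) and NANOG (-1.30) was lower. After median-ratio rescaling LIN28A and TDGF1 did not pass (adjusted p = 0.31 and 0.415 from limma). SOX2 stayed higher at 0.76 (adjusted p = 0.023) and NANOG lower at -1.42. The sums of the 9 in the FPKM as deposited were 946 to 1060 in control and 1150 to 1170 with SAR. These sums were not rescaled, and LIN28A, TDGF1 and POU5F1 had the highest levels of the 9. POU5F1 did not pass before or after rescaling (adjusted p = 0.167 and 0.369 from limma). The part of the marker differences in the fall of the caveolins and MYOF was not tested.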

How the data were processed

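RNA-seq of 3 control and 3 SAR libraries (mRNA selected with oligo(dT) beads, paired-end) was analysed. The authors deposited FPKM per Ensembl gene, 1 column per library and without pooling, scaled by gene length and library total only. Per the labels, the submitters' processing notes list HISAT2, featureCounts, Subread and DESeq2 and GRCh38.p13, without roles or versions, and the annotation release and strand setting are not given in the sources used here.

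Because FPKM are not counts, the 16371 genes whose mean reached 0.5 FPKM were tested on log2(FPKM + 0.1) with limma 3.58.1 in R 4.3.3 (intensity trend, two-sided). P-values were adjusted over all of them after Benjamini and Hochberg. This scale understates the change of low genes. Ratios and profile differences were computed in Python 3.11.15 (scipy 1.17.1, numpy 2.4.6, pandas 2.3.3) and figures drawn with matplotlib 3.10.9. Whole reads behind the FPKM were recovered for 84.1% of genes from the smallest whole numbers (within 0.02) that give a gene's ratios between libraries, with the size of the totals set by GENCODE 29 exon lengths. They serve only to show depth and cover counting error only. A chi-square of these reads between libraries of 1 group was 3.90 to 12.3 per degree of freedom, above counting noise, and all libraries were counted as separate samples.

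Symbols were looked up by gene ID, and positions and exon overlaps from GENCODE 29. The members, the gene lists and the tests were chosen with earlier results of these data known. All members were named, and of the other lists all tested paralogs and up to 5 genes with the smallest adjusted p-values under 0.05, and the 5 genes with a profile most like CAV1 and CAVIN3, of which 1 is not reported here. Genes near CAV1, CAV3, CLTC, ANXA1, single cell type markers and genes opposite to members were named after their values were seen. Alternatives were other pseudocounts (1 and 0.01), filters (none and 1 FPKM), scalings, no trend, a replicate block and each library left out in turn.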

Additional observations from a re-analysis of the deposited data

How the results depend on the processing

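CAV1, CAV2 and MYOF kept adjusted p-values under 0.05 (limma) and their direction under all 14 alternatives, with log2 fold changes of -1.61 to -1.21, -1.01 to -0.58 and -1.01 to -0.71 and adjusted p-values up to 0.0171, 0.0452 and 0.00844. With quantile normalization 3 members passed the fold change threshold downwards, CAV2 and MYOF besides CAV1. With median-ratio rescaling 4 members were lower, the fourth being PACSIN2, with adjusted p-values of 0.0256 to 0.231 over all alternatives. Leaving out 1 library at a time left 0 to 1 members higher, the 1 being CAVIN3 when SAR replicate 3 was left out, where adjusted p-values ranged from 0.00442 to 0.318. CAVIN1 ran from -0.0948 to 0.34 when 1 library was left out, negative without control replicate 2, and EHD2 was at -0.0035 after median-ratio rescaling. The log2 change of the ratio of EHD2 to CAVIN1 ran from -0.26 to 0.21 when 1 library was left out, positive without control replicate 2 (0.21) or SAR replicate 2 (0.06). The ratio of CAVIN1 to CAV1 stayed between 1.45 and 1.61 higher on the log2 scale.

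The replicate numbers do not mark a stated pairing, and deviations of same-numbered libraries correlated at 0.0729, 0.00286 and 0.0247. With the replicate block 3 members were lower and 0 higher, CAV1 at -1.38 (adjusted p = 0.0111), and over all genes 274 were downregulated and 546 upregulated, against 259 and 559 without it. Control replicate 2 did not correlate best with its own number.

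Groups of 3 libraries limit all comparisons: exact tests cannot go below 0.1, and CAVIN2 had too few reads for any statement.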
